A study of Rattus norvegicus with 24 samples.

Results

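The CYP2 family and the CYP4B, CYP4F, CYP4V and CYP4X subfamilies of cytochrome P450 hydroxylate drugs, steroids, fatty acids, leukotrienes and vitamin D. Their members were taken from an array platform by gene symbol, as every probe annotated to a Cyp2 gene other than Cyp2e1 or to a Cyp4b, Cyp4f, Cyp4v or Cyp4x gene. The rule found 37 probes for 36 genes (27 CYP2 probes and 10 CYP4 probes) among the 22523 probes of the array. Cyp2c7 was the gene with 2 probes, and no probe carried a Cyp4x symbol. RNA from 19 rat samples was hybridized to bead arrays that report an intensity for each probe. Constructs were liver scaffolds emptied of their own cells with detergent, reseeded with rat liver cells through the portal vein, and perfused for 2 days (n = 4), 15 days (n = 4) or 28 days (n = 3). All constructs shared Williams' Medium E with fetal bovine serum, insulin and dexamethasone, a glucocorticoid drug, and no test drug is described for them. Both other groups were not cultured and were isolated rat hepatocytes from 4 separate isolations and whole cadaveric liver (n = 4). The part of dexamethasone in the differences from these groups was not tested and cannot be told apart from culture. The cell donors were Sprague Dawley rats, for which the study's methods give a single age range over all animals. The sample records give neither age nor sex by sample, nor do they say whether constructs shared a donor. The p-values below therefore measure the spread between these samples, which may be partly technical.

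A P450 sits in the endoplasmic reticulum and draws electrons from P450 oxidoreductase, encoded by Por, to insert an oxygen atom into its substrate. Hepatocytes express more P450 than any other liver cell type, and many CYP2 genes depend on liver transcription factors, on nuclear receptors that sense foreign compounds, and in rodents on the sex-specific pattern of growth hormone. The rat CYP2C subfamily holds both a male-specific form, Cyp2c11, and a female-specific form, Cyp2c12, and it is known for steroid, retinoid and arachidonic acid oxidation. CYP4F enzymes oxidize the end carbon of leukotriene B4 and long-chain fatty acids.

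Many members lie next to each other on the rat genome. On the RefSeq annotation of the GRCr8 assembly, Cyp2a3, Cyp2a1, Cyp2a2, Cyp2f4 and Cyp2t1 are consecutive genes, as are Cyp2c12, Cyp2c13 and Cyp2c22, and Cyp2c11 is next to Cyp2c24. The promoters of 4 genes are printed here because they represent the opposite extremes found below within 2 subfamilies. Cyp2c7 had the largest decrease and Cyp2c24 the largest increase against liver, and Cyp2b3 and Cyp2b15 moved apart. Each runs 5′ to 3′ over 250 bases before and 50 bases after the annotated gene start (RefSeq, GRCr8). Cyp2c7 is at chr1:247966144-247966443 (plus strand), Cyp2c24 at chr1:246286091-246286390 (plus), Cyp2b3 at chr1:90780242-90780541 (plus) and Cyp2b15 at chr1:91221615-91221914 (plus). Capitals mark matches on either strand to AGGTCA (nuclear receptor half-site), TGTTTAC (FOXA), GTTAAT (HNF1 half-site) or TTGCNNAA (C/EBP).
Cyp2c7: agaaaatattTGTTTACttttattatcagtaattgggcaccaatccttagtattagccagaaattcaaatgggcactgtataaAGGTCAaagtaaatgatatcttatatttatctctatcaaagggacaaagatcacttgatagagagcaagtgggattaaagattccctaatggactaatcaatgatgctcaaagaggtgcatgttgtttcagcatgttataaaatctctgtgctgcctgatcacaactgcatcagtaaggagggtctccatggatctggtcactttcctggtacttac
Cyp2c24: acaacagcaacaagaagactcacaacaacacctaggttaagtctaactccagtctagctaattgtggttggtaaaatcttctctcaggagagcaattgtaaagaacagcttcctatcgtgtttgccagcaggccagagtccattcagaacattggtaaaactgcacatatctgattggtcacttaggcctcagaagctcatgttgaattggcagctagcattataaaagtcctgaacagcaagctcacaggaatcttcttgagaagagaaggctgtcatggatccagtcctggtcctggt
Cyp2b3: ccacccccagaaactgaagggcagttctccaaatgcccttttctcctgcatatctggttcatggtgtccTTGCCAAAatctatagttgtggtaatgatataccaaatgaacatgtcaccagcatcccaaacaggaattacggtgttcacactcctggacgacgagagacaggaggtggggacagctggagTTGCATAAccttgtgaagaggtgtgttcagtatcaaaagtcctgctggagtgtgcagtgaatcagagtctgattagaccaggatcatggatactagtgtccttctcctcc
Cyp2b15: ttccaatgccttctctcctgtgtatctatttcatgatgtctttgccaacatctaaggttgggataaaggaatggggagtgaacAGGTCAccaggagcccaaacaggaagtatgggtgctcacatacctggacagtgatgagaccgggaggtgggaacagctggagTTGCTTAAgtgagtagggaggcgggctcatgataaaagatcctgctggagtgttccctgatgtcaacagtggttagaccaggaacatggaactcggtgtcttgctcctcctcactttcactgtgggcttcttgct

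The Cyp2c7 window held AGGTCA 167 bases and TGTTTAC 240 bases before the start. The Cyp2c24 window held none of the 4 motifs. The Cyp2b3 window held TTGCNNAA at 181 and 60 bases before the start, and the Cyp2b15 window held AGGTCA at 167 bases and TTGCNNAA at 85 bases. In a global alignment the Cyp2b15 and Cyp2b3 windows shared 207 of 300 bases (69.0%), and those of Cyp2c24 and Cyp2c7 shared 166 (55.3%). Across the subfamilies, Cyp2b3 and Cyp2c7 shared 51.0% and Cyp2b15 and Cyp2c24 46.7%, so the CYP2C value was little above these. Of the 36 member genes, 32 had a promoter in the reference table. AGGTCA was in 10 of these (31.2%) against 16.2% of all 33469 promoters of this length, and TTGCNNAA was in 9 (28.1%) against 10.6%. GTTAAT was in 4 (12.5%) against 7.45% and TGTTTAC in 3 (9.38%) against 3.78%. Among the 16 members with a promoter that were lower than liver on day 28, AGGTCA and TTGCNNAA were each in 3 (18.8%), and GTTAAT and TGTTTAC each in 2 (12.5%). A match describes the letters and does not show that a factor binds there.

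Of the 37 probes, 30 passed a filter that asked for a detection p-value under 0.05 on at least 4 of the 24 arrays, and 21 of those 30 were detected on every array of every group. The other 9 (Cyp2a3, Cyp2c11, Cyp2c13, the dimmer Cyp2c7 probe, Cyp2d4, Cyp2u1, Cyp4b1, Cyp4f40 and Cyp4f5) were at background on some arrays, so a member that is bright in 1 group and dark in another had to differ to be tested at all. The 7 members that failed were Cyp2b12, Cyp2b21, Cyp2g1, Cyp2s1, Cyp4f17, Cyp4f18 and Cyp4f37. Their group means lay between 4.38 and 4.80 on the log2 intensity scale, and Cyp4f17 on 1 day 2 array was the single detected value among them. Cyp2g1 is known as an olfactory enzyme. Members detected on every array numbered 23 on day 2, 24 on day 15, 24 on day 28, 26 in hepatocytes and 25 in liver. Across all probes, 42.1% to 50.7% were detected per array. The brightest value of any sample was 14.96, and Cyp2c7, Cyp2c12, Cyp2c23 and Cyp2d2 were above 14 in liver, close to the top of the scale. The probe sequences are not among the sources used here, so a probe of 1 CYP2 or CYP4F gene may also detect a near-identical relative.

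All groups carried the 11 hepatocyte markers found on the array on every array, with summed log2 levels of 17.53 to 17.65 on day 2, 17.79 to 17.83 on day 15, 17.73 to 17.84 on day 28, 18.00 to 18.07 in hepatocytes and 17.93 to 17.96 in liver. Such a sum is carried by the brightest genes and can hide a fall in others. In the test used below, 5 of the 11 were lower and 1 higher than liver on day 2. On day 15, 3 were lower and 0 higher, and on day 28, 2 were lower and 0 higher. Over all probes tested, 22.8%, 24.3% and 25.0% were lower on these days. The 8 stellate cell or fibroblast markers found summed to 11.08 to 11.51 on day 2, 13.37 to 15.66 on day 15 and 14.89 to 15.74 on day 28, against 8.91 to 9.56 in hepatocytes and 12.05 to 13.00 in liver. On day 2 Col1a1, Col3a1, Lum and Dcn of this list were not detected on any array, and on day 28 all 8 were detected on every array. The 4 cholangiocyte markers summed to 9.64 to 9.92 on day 2, 12.66 to 13.51 on day 15 and 13.06 to 13.80 on day 28, against 9.05 to 9.36 in hepatocytes and 9.40 to 10.31 in liver. Krt7, Krt19 and Spp1 of this list were not detected on any array of day 2 or of hepatocytes. The 4 endothelial markers were at 6.47 to 6.76 in all constructs, against 8.71 to 9.37 in hepatocytes and 10.72 to 10.98 in liver. None of them was detected on every array of a construct day, and Cdh5 and Vwf were on no construct array. Their construct sums therefore lie near background. The 4 Kupffer cell or macrophage markers ranged from 9.45 to 11.05 over the constructs, against 9.98 to 10.26 in hepatocytes and 10.30 to 11.17 in liver. Of this list, Cd163, Marco and Adgre1 were not detected on any array on days 2 and 15. Marco and Adgre1 were not detected on day 28 either, while all 4 were detected on every liver array. The Kupffer cell sum therefore does not show that these cells stayed near the liver level. The part of these shifts in the member values was not tested, and in bulk samples fewer hepatocytes and less P450 RNA per hepatocyte cannot be told apart.

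Against cadaveric liver, most members were lower in the constructs at every time, and a small set was higher. In limma's moderated test with Benjamini-Hochberg adjustment over 12665 probes, 19 of 30 members were lower and 3 were higher on day 2, where 22.8% of all probes tested were called lower, 33.7% higher and 56.5% either way. On day 15, 21 members were lower and 5 higher (24.3% and 28.8% of all probes, 53.1% either way). On day 28, 20 were lower and 5 higher (25.0% and 26.9% of all probes, 51.9% either way). These counts include members that passed the filter only through the groups where they were high. They are Cyp2a3 and Cyp4f5 among the higher and Cyp4f40 and the dim Cyp2c7 probe among the lower, and their calls add no support. The median log2 fold change of the members was -1.36 on day 2, -1.65 on day 15 and -2.15 on day 28, beside 0.09, 0.01 and -0.01 over all probes. On day 28, 16 members were lower by at least 4-fold, a size at which the share over all probes was not counted. The 27 tested probes of all other P450 genes had 10 lower and 7 higher on day 2, 11 lower and 8 higher on day 15 and 7 lower and 9 higher on day 28, with medians of -0.06, -0.31 and -0.04, and the difference between the 2 sets was not tested. These comparisons share the same 4 liver samples. Without any 1 sample the calls over both directions numbered 20 to 22 on day 2, 24 to 26 on day 15 and 23 to 26 on day 28.

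**Figure D1:**
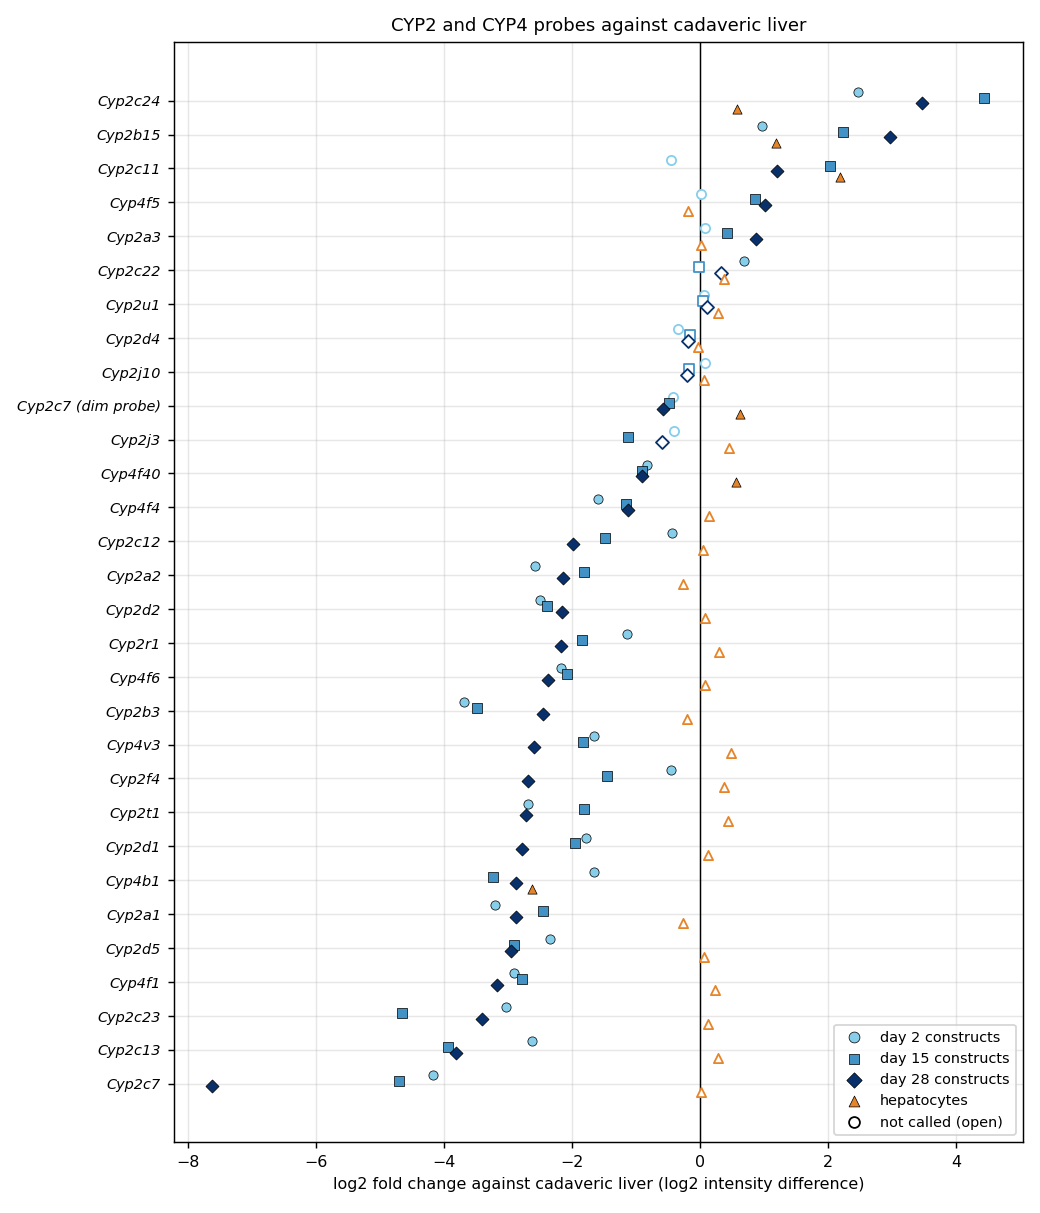
Log2 fold change of the 30 tested member probes in constructs of day 2, 15 and 28 and in hepatocytes against cadaveric liver (x axis, difference in log2 intensity), with 1 row per probe ordered by the day 28 value. Filled symbols passed an adjusted p of 0.05 and open symbols did not. The row for Cyp2c7 reaches -7.62 on day 28 and that for Cyp2c24 4.44 on day 15, while hepatocytes lie near 0 for most rows. Folds of probes at background in one of the groups are as fitted.

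The CYP2C members held the largest changes in both directions. Cyp2c7 (ILMN_1354585), a female-predominant oxidase of steroids and retinoic acid, read 9.52, 10.83, 10.59 and 11.40 in day 2 constructs, 8.15, 8.45, 11.56 and 12.09 on day 15 and 7.51, 6.46 and 7.46 on day 28, against 14.75, 14.77, 14.96 and 14.60 in hepatocytes and 14.75, 14.75, 14.81 and 14.76 in liver. Every construct was below every hepatocyte and liver sample. The log2 fold change against liver was -4.18 (standard error 0.65, adjusted p = 2.2e-05) on day 2, -4.70 (0.65, adjusted p = 6.9e-06) on day 15 and -7.62 (0.71, adjusted p = 4.4e-08) on day 28, the last being 197-fold. The second Cyp2c7 probe (ILMN_1358622) had means of 4.48 to 4.63 in the constructs, where it was not detected on any array, against 5.68 in hepatocytes and 5.06 in liver, so its range was too small to set beside that of the bright probe. It was called lower at day 15 and day 28, at least 1.11-fold and 1.13-fold, and neither call held without liver replicate 1 (adjusted p = 0.12 and 0.069) or liver replicate 3 (adjusted p = 0.13 and 0.074). At least folds set the bright group against the lowest level called detected on the arrays of the dark group. Leaving out day 15 replicate 1 or 3 also ended the day 15 call (adjusted p = 0.073 and 0.079), as leaving out replicate 2 or 3 did on day 28 (adjusted p = 0.053 and 0.056).

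Cyp2c23 (ILMN_1376623), an arachidonic acid epoxygenase, read 10.73, 11.35, 11.95 and 12.47 on day 2, 8.40, 8.81, 11.15 and 11.74 on day 15 and 10.89, 11.82 and 11.10 on day 28, against 14.79 ± 0.12 (SD, n = 4) in hepatocytes and 14.50, 14.69, 14.82 and 14.65 in liver. Constructs and liver did not overlap. Its log2 fold change against liver was -3.04 on day 2, -4.65 on day 15 and -3.40 on day 28 (adjusted p = 9.6e-05, 8.6e-07 and 8.4e-05). Cyp2c13 (ILMN_1353182), a form known as male-specific in adult rats, read 5.86, 5.89, 5.94 and 6.68 on day 2, 4.79 ± 0.15 on day 15 (SD, n = 4) and 4.67, 5.05 and 4.99 on day 28, against 9.01 ± 0.24 in hepatocytes and 9.20, 8.85, 8.68 and 8.16 in liver. Its log2 fold change against liver was -2.63, -3.94 and -3.82 on days 2, 15 and 28 (adjusted p = 3e-09, 1.5e-11 and 8.1e-11). From day 15 it was detected on 2 of 5 and 3 of 5 arrays, so the later falls rest partly on background values.

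Cyp2c24 (ILMN_1361392) went the other way. It read 8.38, 9.60, 8.83 and 8.89 on day 2, 10.80, 10.59, 11.01 and 11.20 on day 15 and 9.76, 9.81 and 10.22 on day 28, against 7.02, 6.93, 7.06 and 7.14 in hepatocytes and 6.34, 6.70, 6.38 and 6.43 in liver. Every construct was above every hepatocyte and liver sample. The rise over liver was 5.51-fold on day 2, 21.7-fold on day 15 and 11.1-fold on day 28 (log2 2.46, 4.44 and 3.47, with standard errors of 0.19, 0.19 and 0.21 and adjusted p = 3.4e-09, 1.3e-12 and 1.4e-10). Cyp2c24 is beside Cyp2c11 in the gene order, and both were above liver on days 15 and 28. On day 2, however, Cyp2c11 was not detected on any array. The neighbours Cyp2c13 and Cyp2c22 differed on days 15 and 28, Cyp2c13 being lower than liver and Cyp2c22 not called.

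**Figure D2:**
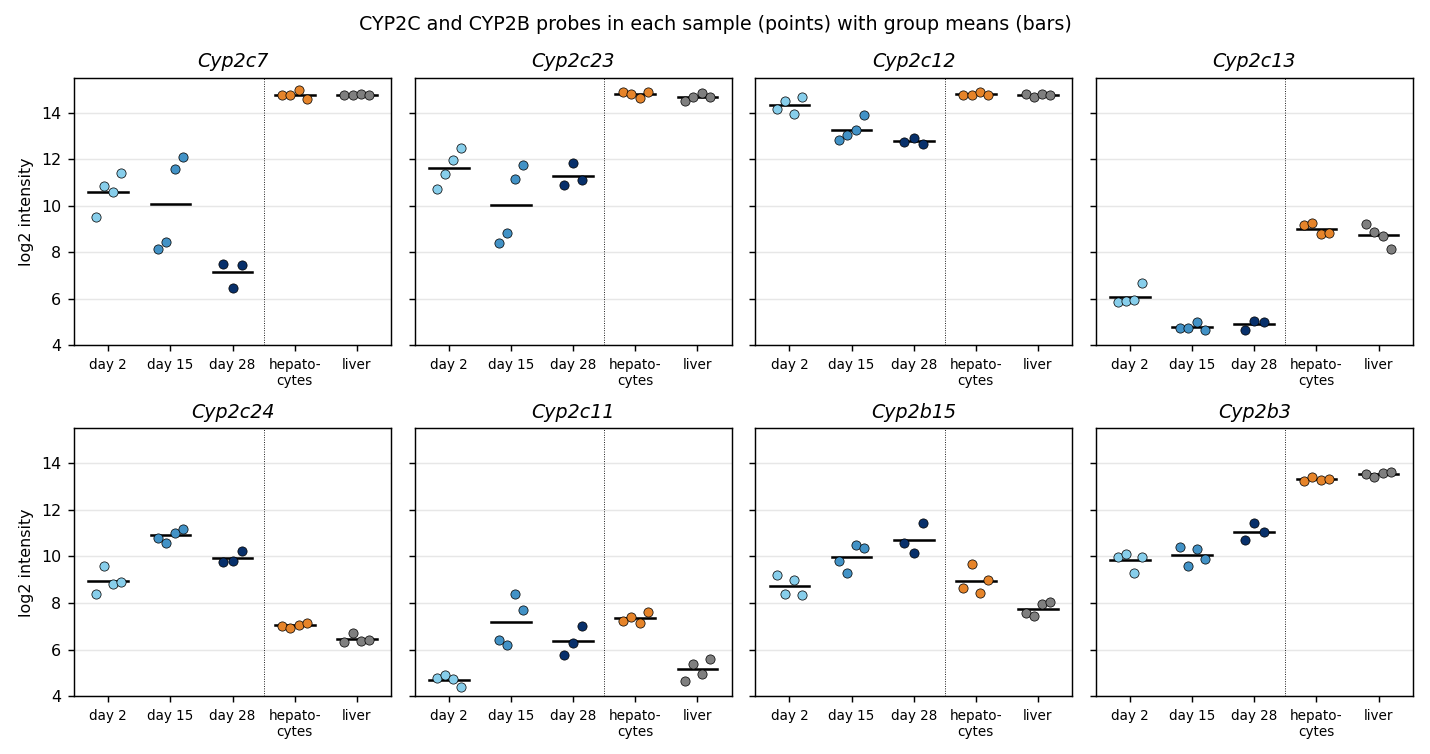
Log2 intensity of 8 CYP2C and CYP2B probes in every sample (points, y axis) of day 2, day 15 and day 28 constructs, hepatocytes and liver, with bars at the group means (n = 4, 4, 3, 4 and 4). Cyp2c7, Cyp2c23, Cyp2c13 and Cyp2b3 are lower in all constructs than in liver, while Cyp2c24 and Cyp2b15 are higher. The 4 day 15 constructs split into a low and a high pair for Cyp2c7 and Cyp2c23.

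Among the sex-dependent members, both Cyp2c11 and Cyp2c12 departed from liver. Cyp2c12 (ILMN_1357069), the female-specific steroid sulfate hydroxylase, read 14.14, 14.50, 13.94 and 14.67 on day 2, 12.83, 13.02, 13.27 and 13.91 on day 15 and 12.75, 12.92 and 12.63 on day 28, against 14.77, 14.75, 14.88 and 14.76 in hepatocytes and 14.79, 14.65, 14.80 and 14.77 in liver. The log2 fold change against liver was -1.49 on day 15 (adjusted p = 1.4e-06) and -1.99 on day 28 (adjusted p = 1.1e-07), with no overlap. On day 2 it was -0.44 with an adjusted p of 0.049 and overlapping groups, and the call was lost without any 1 liver sample (adjusted p = 0.057 to 0.091) and without day 2 replicate 1 or 3 (adjusted p = 0.12 and 0.18).

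Cyp2c11 (ILMN_1357969), the male-specific testosterone hydroxylase, read 4.76, 4.92, 4.72 and 4.41 on day 2, when it was not detected on any array. It read 6.42, 6.18, 8.40 and 7.72 on day 15 and 5.77, 6.28 and 7.01 on day 28, against 7.22, 7.40, 7.12 and 7.60 in hepatocytes and 4.67, 5.38, 4.95 and 5.61 in liver. Hepatocytes were above liver by 2.18 on the log2 scale (adjusted p = 0.00032), and liver was detected on 2 of 4 arrays. Day 15 constructs were above liver by 2.03 (adjusted p = 0.00017) and day 28 constructs by 1.20 (adjusted p = 0.019). The day 28 call was lost without liver replicate 1 (adjusted p = 0.057) or day 28 replicate 3 (adjusted p = 0.12). Of the 17 genes in a list of sex-linked and sex-dependent genes, 7 had a probe, none of them Y-linked, and 5 were tested. On day 28, Cyp3a2 (log2 fold change 7.97, adjusted p = 4.3e-11) and Sult2a2 (1.91, adjusted p = 0.0029) were higher than liver, and Akr1b7 (-2.64, adjusted p = 4.6e-07) and A1bg (adjusted p = 2.6e-09, not detected on day 28) were lower. Mup4 did not pass (-0.09, adjusted p = 0.82), and the median of the 5 was -0.09. On day 15, 1 of the 5 was higher (Cyp3a2) and 2 were lower (Akr1b7 and A1bg). Over all probes, 26.9% were higher and 25.0% lower on day 28, and 28.8% and 24.3% on day 15. The female-dependent A1bg read 6.71 ± 0.61 on day 2, 6.95 ± 2.28 on day 15 and 4.58 ± 0.06 on day 28, against 14.06 ± 0.28 in hepatocytes and 14.53 ± 0.23 in liver. The part that donor sex has in these values was not tested.

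Cyp2a1 and Cyp2a2, steroid hydroxylases of the liver, were lower in all constructs. Cyp2a1 (ILMN_1361745) averaged 8.36 ± 0.58 on day 2, 9.10 ± 0.39 on day 15 and 8.69 ± 0.16 on day 28 (SD, n = 4, 4 and 3), against 11.29 ± 0.21 in hepatocytes and 11.56 ± 0.26 in liver (n = 4 each). Cyp2a2 (ILMN_1356756), a male-predominant form, averaged 11.41 ± 0.55, 12.18 ± 0.30 and 11.85 ± 0.13 on days 2, 15 and 28, against 13.73 ± 0.14 in hepatocytes and 13.99 ± 0.12 in liver. The log2 fold changes against liver lay between -3.20 and -2.46 for Cyp2a1 and between -2.58 and -1.81 for Cyp2a2. Retinoic acid hydroxylase Cyp2c22 (ILMN_1373045) stayed bright, at 14.56 ± 0.06 on day 2, 13.87 ± 0.15 on day 15 and 14.22 ± 0.24 on day 28, against 14.26 ± 0.14 in hepatocytes and 13.88 ± 0.41 in liver. It was above liver on day 2 by 0.68 (adjusted p = 0.0012).

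The CYP2D enzymes, which oxidize amine drugs such as debrisoquine, gave 3 of 4 members lower than liver at every time. Beside them, 22.8%, 24.3% and 25.0% of all probes were lower on days 2, 15 and 28. Cyp2d2 (ILMN_1375109) read 11.61, 12.08, 12.06 and 12.61 on day 2, 12.33, 12.36, 12.02 and 12.11 on day 15 and 12.06, 12.69 and 12.55 on day 28, against 14.66 ± 0.10 in hepatocytes and 14.59, 14.60, 14.65 and 14.52 in liver. Its construct values neither overlapped those of liver nor differed between days in the F test (adjusted p = 0.26). Cyp2d5 (ILMN_1349991) averaged 9.58 ± 0.17, 9.00 ± 0.15 and 8.96 ± 0.45 on days 2, 15 and 28, against 11.98 ± 0.17 in hepatocytes and 11.92 ± 0.18 in liver. Cyp2d1 (ILMN_1363258) averaged 7.39 ± 0.13, 7.22 ± 0.30 and 6.40 ± 0.55, against 9.30 ± 0.15 in hepatocytes and 9.18 ± 0.34 in liver. Cyp2d4, best known from brain, had group means of 5.10 to 5.43, and its log2 differences from liver were -0.34, -0.16 and -0.19 (adjusted p = 0.26, 0.6 and 0.59).

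Of the 4 CYP2B members, 2 were above background and they moved apart. Cyp2b15 (ILMN_1373225) read 9.19, 8.39, 8.98 and 8.33 on day 2, 9.82, 9.29, 10.48 and 10.35 on day 15 and 10.57, 10.13 and 11.45 on day 28, against 8.64, 9.67, 8.44 and 8.98 in hepatocytes and 7.57, 7.45, 7.97 and 8.03 in liver. Every construct was above every liver sample. The log2 fold change against liver was 0.97 on day 2 (adjusted p = 0.014), 2.23 on day 15 (adjusted p = 9e-06) and 2.96 on day 28 (adjusted p = 7.3e-07), and the day 2 call was lost without day 2 replicate 1 (0.81, adjusted p = 0.052). Cyp2b3 (ILMN_1364622), a liver form that phenobarbital is not known to induce, read 9.97, 10.11, 9.30 and 9.97 on day 2, 10.40, 9.59, 10.30 and 9.88 on day 15 and 10.72, 11.44 and 11.03 on day 28, against 13.32 ± 0.08 in hepatocytes and 13.52, 13.40, 13.58 and 13.61 in liver. It was 12.9-fold lower than liver on day 2, 11.2-fold lower on day 15 and 5.52-fold lower on day 28 (adjusted p = 1.3e-11, 2.7e-11 and 9.2e-09). The phenobarbital-inducible Cyp2b1 and Cyp2b2 had no probe under these symbols and were not analysed here.

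The arachidonic acid epoxygenase Cyp2j3 (ILMN_1373593) averaged 10.41 ± 0.43 on day 2, 9.69 ± 0.39 on day 15 and 10.23 ± 0.43 on day 28, against 11.27 ± 0.22 in hepatocytes and 10.82 ± 0.43 in liver. It was called lower than liver on day 15 (-1.13, adjusted p = 8e-04), although 1 liver sample at 10.20 lay at the level of the highest day 15 construct. The day 28 difference of -0.59 (adjusted p = 0.073) passed the threshold with a replicate block (adjusted p = 0.037). It also passed without liver replicate 2 or day 28 replicate 3 (adjusted p = 0.016 and 0.023). After neqc and after quantile normalization without background correction it passed as well (adjusted p = 0.01 and 0.0092). Those 2 settings took each of the 24 arrays as a sample, duplicates included, so their p-values rest on more arrays than constructs. Cyp2j10 had group means of 5.41 to 5.68 and passed the threshold in no comparison. Cyp2r1 (ILMN_1354296), a vitamin D 25-hydroxylase, read 7.75 ± 0.08 on day 2, 7.05 ± 0.34 on day 15 and 6.72 ± 0.17 on day 28, against 9.20 ± 0.28 in hepatocytes and 8.89 ± 0.11 in liver. Its fold change was -1.14, -1.84 and -2.18 on the log2 scale (adjusted p = 3.4e-06, 7.8e-09 and 2.8e-09). Cyp2t1 (ILMN_1350655) averaged 7.66 ± 0.25, 8.54 ± 0.46 and 7.63 ± 0.29 on days 2, 15 and 28, against 10.77 ± 0.21 in hepatocytes and 10.34 ± 0.13 in liver.

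Members best known outside the liver were mostly dim, and the brighter Cyp2f4 and Cyp4b1 were called lower than liver at every time. Cyp2f4 (ILMN_1371879), known for naphthalene oxidation in lung, read 8.85, 9.00, 8.54 and 8.93 on day 2, 7.39, 7.62, 8.08 and 8.22 on day 15 and 6.40, 6.83 and 6.57 on day 28, against 9.74, 9.65, 9.77 and 9.52 in hepatocytes and 8.97, 9.56, 9.30 and 9.34 in liver. Its fold change against liver was -1.46 on day 15 and -2.69 on day 28 (adjusted p = 6.7e-07 and 6.7e-10). The day 2 difference of -0.46 (adjusted p = 0.026) came with overlapping groups and was lost without liver replicate 2 or 4 (adjusted p = 0.089 and 0.053) or day 2 replicate 3 (adjusted p = 0.096). Cyp4b1 (ILMN_1353540), a lung enzyme that also acts on fatty acids, read 6.61, 7.01, 6.90 and 6.50 on day 2, 5.06, 4.72, 5.22 and 5.70 on day 15 and 4.91, 5.88 and 5.82 on day 28, against 6.09, 5.66, 5.49 and 5.91 in hepatocytes and 8.60, 8.27, 8.21 and 8.53 in liver. Liver was above all other samples, hepatocytes included. The nasal and lung form Cyp2a3 (ILMN_1371649) was not detected on day 2, in hepatocytes or in liver, and was detected on all 5 arrays of day 28 at 5.65, 4.92 and 5.35, at least 1.24-fold above liver (adjusted p = 0.00068). It passed the filter only through the day 28 arrays, so its calls describe the selection and are no separate support for a rise. Its day 15 call (0.42, adjusted p = 0.047) was lost without any 1 liver sample (adjusted p = 0.065 to 0.091) and without day 15 replicate 3 (0.20, adjusted p = 0.21). Cyp2u1, a fatty acid hydroxylase of brain and thymus, had means of 4.64 to 4.91 and passed in no comparison.

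**Figure D3:**
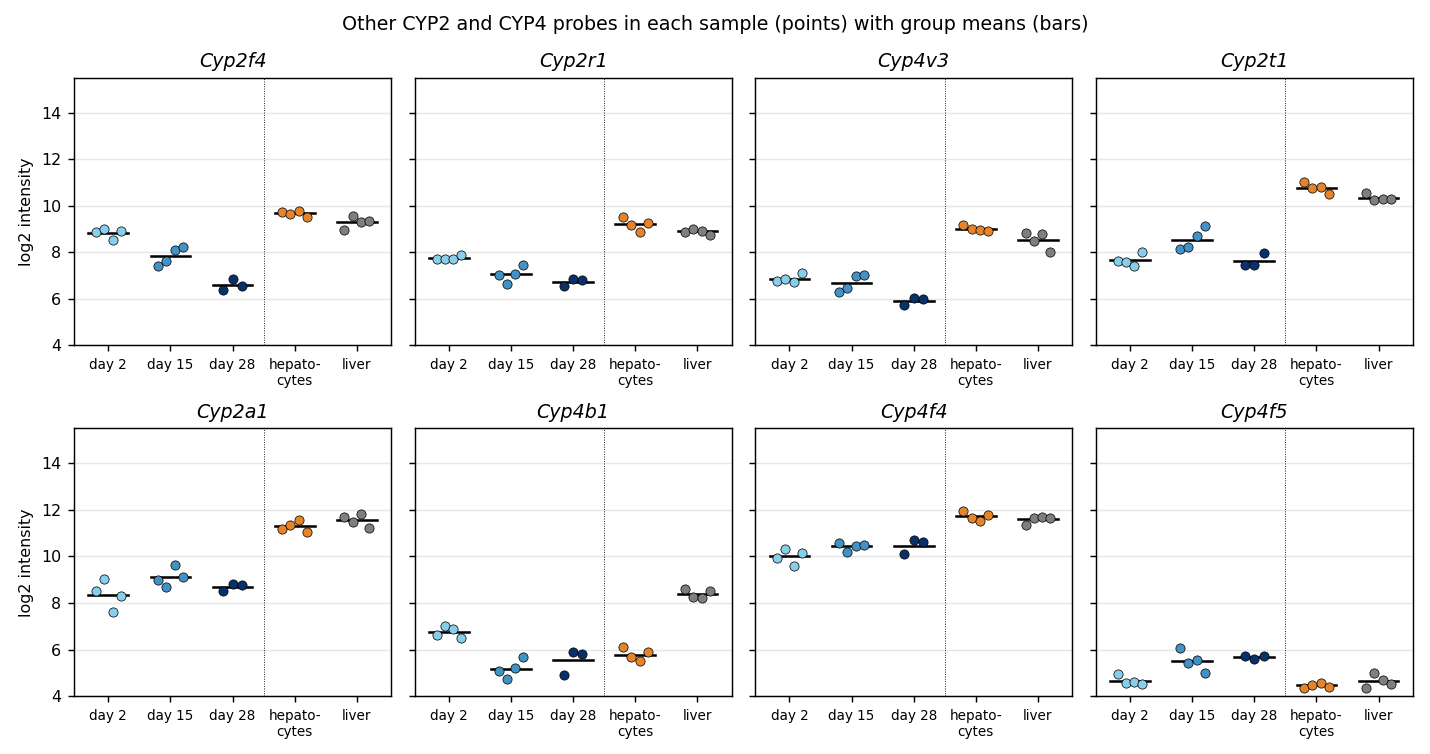
Log2 intensity of 8 other CYP2 and CYP4 probes in every sample (points, y axis) of day 2, day 15 and day 28 constructs, hepatocytes and liver, with bars at the group means (n = 4, 4, 3, 4 and 4). Cyp2f4, Cyp2r1 and Cyp4v3 have lower means at each later day, Cyp4b1 is highest in liver, and Cyp4f5 is highest on days 15 and 28.

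In the CYP4F subfamily, 4 of 5 tested members were lower than liver at every time and Cyp4f5 was higher on days 15 and 28. Over all probes tested, 22.8%, 24.3% and 25.0% were lower on days 2, 15 and 28. The shares called higher were 28.8% on day 15 and 26.9% on day 28. Cyp4f1 (ILMN_1372735) read 8.99, 9.43, 8.56 and 9.07 on day 2, 9.23, 8.70, 9.24 and 9.36 on day 15 and 8.42, 9.08 and 8.72 on day 28, against 12.17 ± 0.10 in hepatocytes and 11.91, 11.94, 12.10 and 11.74 in liver. The falls against liver were 7.52-fold, 6.92-fold and 9.07-fold (adjusted p = 1.1e-10, 2e-10 and 1.2e-10). Cyp4f6 (ILMN_1366152), which like Cyp4f1 hydroxylates leukotriene B4, averaged 8.98 ± 0.11, 9.08 ± 0.08 and 8.77 ± 0.19 on days 2, 15 and 28, against 11.22 ± 0.30 in hepatocytes and 11.15 ± 0.14 in liver. Cyp4f4 (ILMN_1368015) averaged 10.00 ± 0.32, 10.43 ± 0.16 and 10.46 ± 0.32, against 11.73 ± 0.18 in hepatocytes and 11.59 ± 0.16 in liver. Cyp4f40 was not detected in any construct and was at least 1.31-fold, 1.41-fold and 1.44-fold lower than liver on days 2, 15 and 28 (adjusted p = 0.00021, 0.00011 and 0.00024). Cyp4f5 (ILMN_1349889) read 4.97, 4.55, 4.59 and 4.53 on day 2, 5.51 ± 0.43 on day 15 (SD, n = 4) and 5.71, 5.59 and 5.71 on day 28, against 4.46 ± 0.10 in hepatocytes and 4.37, 5.01, 4.68 and 4.54 in liver. Hepatocytes and liver were not detected on any array, and the rise over liver was at least 1.43-fold on day 15 and 1.59-fold on day 28 (adjusted p = 0.00041 and 0.00017), the day 15 and liver values overlapping at 1 sample. Cyp4f40 and Cyp4f5 each passed the filter only through the groups where they were high, so these calls are no separate support. Cyp4v3 (ILMN_1353124), whose human counterpart CYP4V2 hydroxylates fatty acids, averaged 6.86 ± 0.19, 6.69 ± 0.36 and 5.92 ± 0.15 on days 2, 15 and 28, against 9.01 ± 0.12 in hepatocytes and 8.52 ± 0.38 in liver.

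Isolated hepatocytes stood much nearer to liver than the constructs did. This comparison addresses isolation without culture. The nearness held over all probes too, with 20.9% called here and 51.9% to 56.5% for constructs against liver. The bright Cyp2c7 probe, Cyp2c12, Cyp2c23 and Cyp2d2 averaged above 14 in both groups, close to the top of the scale, where differences are compressed. Of the 30 members, 5 were higher and 1 was lower than in liver, where 11.3% of all probes tested were higher, 9.59% lower and 20.9% called either way. The lower one was Cyp4b1 (log2 fold change -2.62, adjusted p = 4.6e-08). The higher ones were Cyp2c11, Cyp2b15 (1.18, adjusted p = 0.012), the dim Cyp2c7 probe, Cyp2c24 (0.58, adjusted p = 0.041) and Cyp4f40 (0.56, adjusted p = 0.017). The Cyp2c24 call was lost without any 1 hepatocyte sample (adjusted p = 0.052 to 0.093) and without liver replicate 1, 3 or 4 (adjusted p = 0.09, 0.084 and 0.087). That of Cyp4f40 was lost without hepatocyte replicate 1 (adjusted p = 0.056) or liver replicate 1 or 4 (adjusted p = 0.06 and 0.073). That of the dim Cyp2c7 probe was lost without hepatocyte replicate 1 (adjusted p = 0.078) or liver replicate 2 or 4 (adjusted p = 0.078 and 0.088). Without hepatocyte replicate 1 the count was 3 members in all, 2 higher and 1 lower. Markers of other liver cells were also lower in hepatocytes than in liver. They included 7 of 8 tested stellate cell or fibroblast markers (median log2 fold change -3.06), 3 of 3 endothelial, 3 of 4 Kupffer cell and 2 of 4 cholangiocyte markers, where 9.59% of all probes were lower. Their part in the Cyp4b1 value was not tested.

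Day 2 constructs were already below hepatocytes for most members. Between day 2 constructs and hepatocytes, 21 members were lower and 2 higher (23.9% and 31.0% of all probes tested, 55.0% either way), and the median log2 fold change was -1.59 against 0.03 over all probes. The lower ones include Cyp4f40 and the dim Cyp2c7 probe. They had passed the filter only through hepatocyte and liver arrays, so their calls add no support. Cyp2c7 was 18.2-fold, Cyp2b3 11.2-fold, Cyp2c23 8.98-fold and Cyp4f1 8.9-fold lower on day 2 (adjusted p = 2.4e-05, 3e-11, 7e-05 and 4e-11). The log2 fold change was -3.11 for Cyp2t1, -2.93 for Cyp2a1, -2.91 for Cyp2c13 and -2.57 for Cyp2d2. Cyp2c11 fell to background, a drop of at least 4.97-fold (adjusted p = 8.5e-06). No day 2 array detected it, so it passed the filter only through the other groups, and this call is no separate support. The 2 higher members were Cyp2c24 (3.7-fold, adjusted p = 1.3e-07) and Cyp4b1 (0.97 on the log2 scale, adjusted p = 0.00097). The call for Cyp2c12 (-0.48, adjusted p = 0.034) was lost without any 1 hepatocyte sample (adjusted p = 0.052 to 0.073) or day 2 replicate 1 or 3 (adjusted p = 0.092 and 0.13).

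Over the culture period the members went both ways. The moderated F test over days 2, 15 and 28 called 21 of 30 members, where it called 50.5% of all probes tested. A plain one-way analysis of variance called 16 members beside 49.4% of all probes. With only the construct groups fitted, the F test called 17 members beside 53.4%. The count of members, set beside the share over all probes, thus depended on the form of the test. From day 2 to day 15, 8 members were higher and 9 lower on the later day (17.7% and 24.7% of all probes, 42.4% either way). Cyp2c24 was 3.93-fold higher on day 15 than on day 2 (adjusted p = 3.3e-07) and Cyp2c11 was up at least 4.46-fold (adjusted p = 4e-05). Cyp2c11 passed the filter only through groups other than day 2, so its call is no separate support. Cyp2b15 was 2.4-fold higher (adjusted p = 0.0036), a call that was lost without day 15 replicates 3 and 4 (adjusted p = 0.082). The log2 fold change was -1.58 for Cyp4b1 (adjusted p = 1.5e-05), -1.31 for Cyp2c13 (adjusted p = 5.2e-05) and -1.05 for Cyp2c12 (adjusted p = 0.00015), and Cyp2f4 was 2-fold lower (adjusted p = 0.00011). It was 0.88 for Cyp2t1 (adjusted p = 0.001) and -0.70 for Cyp2r1 (adjusted p = 0.0011). Rises of Cyp2a1 (0.74) and Cyp2a2 (0.76) and the fall of Cyp2c23 (-1.60, adjusted p = 0.024) came with overlapping groups. The call for Cyp2a1 was lost without day 2 replicate 3 or day 15 replicate 3 (adjusted p = 0.072 and 0.067). That for Cyp2c23 was lost without day 2 replicate 3 or 4 (adjusted p = 0.062 and 0.084) or day 15 replicate 1 or 2 (adjusted p = 0.11 and 0.097). The rise of Cyp4f4 (0.43, adjusted p = 0.038) was lost without day 2 replicate 1 or 3 or day 15 replicate 1, 3 or 4 (adjusted p = 0.069 to 0.15), and the fall of Cyp2j3 (-0.72, adjusted p = 0.025) without day 2 replicate 1, 3 or 4 or day 15 replicate 2 or 4 (adjusted p = 0.051 to 0.088). Both came with overlapping groups.

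Between day 28 and day 2, 7 members were higher and 9 lower on day 28 (18.3% and 29.8% of all probes, 48.0% either way), with a median of -0.17 against -0.15 over all probes. Cyp2c7 was 10.9-fold lower on day 28 than on day 2 (adjusted p = 0.00057), Cyp2f4 4.69-fold lower (adjusted p = 3e-08) and Cyp2c13 2.28-fold lower (adjusted p = 0.00021). The log2 fold change was -1.55 for Cyp2c12, -1.22 for Cyp4b1, -1.03 for Cyp2r1 and -0.94 for Cyp4v3, and Cyp2d1 was 1.99-fold lower (adjusted p = 0.0011). Cyp2b15 was 3.98-fold higher (adjusted p = 1e-04), Cyp2b3 2.35-fold higher (adjusted p = 7.1e-05) and Cyp2c24 2.01-fold higher (adjusted p = 0.00062). Cyp2c11 had increased at least 2.51-fold (adjusted p = 0.0026) and Cyp2a3 at least 1.22-fold (adjusted p = 0.0017), and Cyp4f5 was higher by 1.01 on the log2 scale (adjusted p = 0.00025). Both Cyp2a3 and Cyp4f5 passed the filter only through arrays of the later days, and Cyp2c11 passed it without any day 2 array. Cyp2b3 thus remained 5.52-fold below liver on day 28 while above its day 2 level. The fall of Cyp2d5 (-0.62, adjusted p = 0.0052) was lost without day 28 replicate 1 (-0.37, adjusted p = 0.056). The rise of Cyp4f4 (0.46, adjusted p = 0.034) came with overlapping groups and was lost without day 2 replicate 1 or 3 (adjusted p = 0.071 and 0.12) or day 28 replicate 2 or 3 (adjusted p = 0.16 and 0.12).

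Fewer members differed between day 28 and day 15. On day 28, 1 was higher and 6 were lower (4.91% and 4.14% of all probes tested, 9.05% either way). Cyp2b3 was 2.03-fold higher (adjusted p = 0.004). Cyp2f4 was lower, with a log2 fold change of -1.23 (adjusted p = 0.00038), its groups lying at 6.40 to 6.83 on day 28 and 7.39 to 8.22 on day 15. The others were Cyp2c24 (-0.97, adjusted p = 0.0068), Cyp2t1 (-0.91, adjusted p = 0.0091), Cyp2d1 (-0.83, adjusted p = 0.024), Cyp4v3 (-0.77, adjusted p = 0.018) and Cyp2c7 (-2.92, adjusted p = 0.014). Without day 28 replicate 1, 4 calls were left in all, beside 4.70% of all probes, and Cyp2t1, Cyp2d1 and Cyp4v3 were lost (adjusted p = 0.052, 0.18 and 0.097). Cyp2c7 was lost without day 15 replicate 3 or day 28 replicate 2 (adjusted p = 0.056 and 0.065). Cyp4v3 and Cyp2d1 were each lost without day 15 replicate 3 (adjusted p = 0.068 and 0.054) or replicate 4 (adjusted p = 0.067 and 0.089), and Cyp2d1 also without day 28 replicate 3 (adjusted p = 0.054). In a fit of both groups alone 2 members were called, both lower, beside 2.12% of all probes.

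The 4 day 15 constructs stood in pairs for several members. Cyp2c7 was 8.15 and 8.45 in replicates 1 and 2 and 11.56 and 12.09 in replicates 3 and 4, Cyp2c23 was 8.40 and 8.81 beside 11.15 and 11.74, and Cyp2c11 was 6.42 and 6.18 beside 8.40 and 7.72. Cyp2b3 did not stand in these pairs, and Cyp2d2 was slightly lower in replicates 3 and 4. The summed stellate cell or fibroblast markers ran the opposite way, at 15.20 and 15.66 in replicates 1 and 2 and 13.75 and 13.37 in replicates 3 and 4. The summed hepatocyte markers were level, at 17.79, 17.81, 17.83 and 17.80 in replicates 1 to 4. The prolactin receptor gene Prlr, 1 gene picked from 21 tested regulators, read 5.85, 5.82, 7.45 and 8.23 in replicates 1 to 4. The part of the marker difference in these values was not tested. The Cyp2c7 difference between day 15 and day 2 did not pass the threshold over all 4 constructs of each day (-0.52, standard error 0.65, adjusted p = 0.56). It was 1.24 higher without replicates 1 and 2 (adjusted p = 0.016) and fell by 2.29 without replicates 3 and 4 (adjusted p = 8.9e-05), so its direction on day 15 rests on which constructs enter. Cyp2c23 differed by -0.18 without replicates 1 and 2 (adjusted p = 0.75). Without replicates 3 and 4, 3 members were higher and 1 was lower on day 28 than on day 15, and 2.11% of all probes were called in that fit. The choice of these constructs was made after their values were seen.

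P450 redox partners and regulators were examined beside the members. Por (ILMN_1358080), the electron donor of the microsomal P450s, was above liver by 1.79 on day 2, 1.41 on day 15 and 1.35 on day 28 on the log2 scale (adjusted p = 4e-07, 9.3e-06 and 3.6e-05), at 12.77 ± 0.22, 12.39 ± 0.12 and 12.34 ± 0.32 in constructs against 10.83 ± 0.32 in hepatocytes and 10.99 ± 0.45 in liver. Of the 7 tested redox and heme genes, 2 were higher and 4 lower on day 28, when 26.9% of all probes were called higher and 25.0% lower. Among the lower ones was the cytochrome b5 reductase gene Cyb5r3, with a log2 fold change of -1.60 (adjusted p = 3.9e-07). Of 21 tested regulators, Por among them, 2 were higher and 15 lower than liver on day 28, beside the same shares over all probes. The liver transcription factor genes Hnf4a, Cebpa and Onecut1 had log2 fold changes of -1.88, -2.66 and -2.86 on day 28 (adjusted p = 8e-08, 7.1e-09 and 7.3e-07), and the growth hormone receptor gene Ghr one of -3.13 (adjusted p = 7.8e-11). The pregnane X receptor gene Nr1i2 fell by 0.97 (adjusted p = 1.5e-05). The constitutive androstane receptor gene Nr1i3 was higher than liver by 0.69 on day 2 (adjusted p = 0.0074) and lower on day 15 (-1.44, adjusted p = 9.6e-06) and on day 28 (-0.56, adjusted p = 0.04). Bcl6, a repressor of growth hormone target genes, was higher by 1.78 on day 28 (adjusted p = 3.3e-06).

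**Figure D4:**
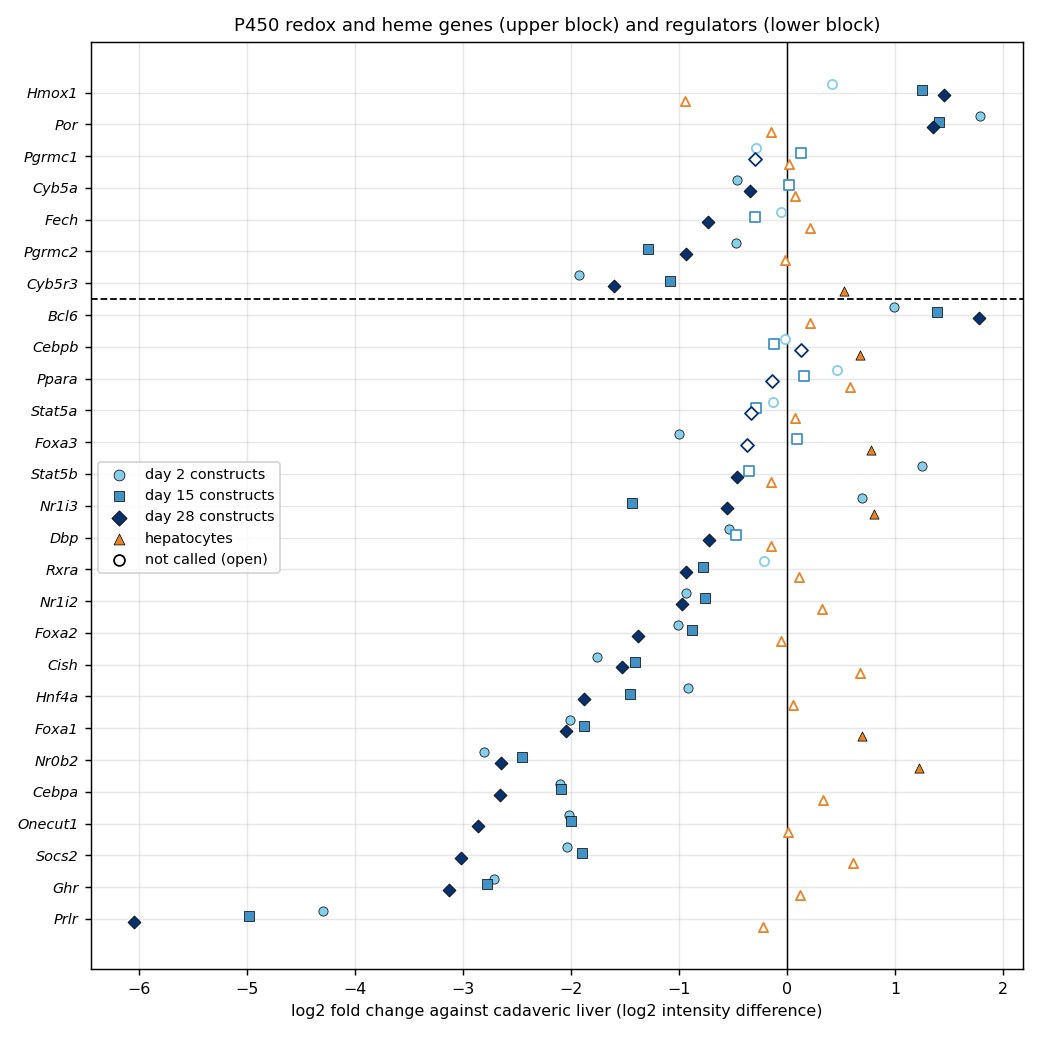
Log2 fold change against cadaveric liver (x axis, difference in log2 intensity) of 7 P450 redox and heme genes (upper block) and 20 other regulators (lower block) in constructs of day 2, 15 and 28 and in hepatocytes. Filled symbols passed an adjusted p of 0.05. Por lies at 1.35 to 1.79 in constructs, and Ghr and Prlr lie at the low end, at -3.13 and -6.05 on day 28.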

How the data were processed

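The authors hybridized biotin-labelled RNA to RatRef-12 BeadChips. They deposited bead intensity values on a linear scale, each with its detection p-value, and a log2 table that neqc of limma had produced by background correction and quantile normalization (no version is given in the sources used here). The deposited log2 values were used, and neqc run again on the deposited intensities (offset 16, 842 control probes left out) came within 0.0262 of them, the next array being at least 0.841 away. The intensity columns and the sample records number 14 of 24 arrays differently within groups, so intensities and detection p-values were read by group. A further table with 24 per-sample columns that match no label was not used. Gene symbols came from the platform annotation, in which 13793 of 22523 probes had 1 gene (13337 genes) and 8730 none. Both arrays of 5 constructs were averaged. These duplicates differed by an SD of 0.16 to 0.201 over probes, against 0.243 to 0.475 between other constructs of a day. Array number limits the precision.

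Groups were compared with limma 3.58.1 (R 4.3.3), by lmFit and eBayes over all 5 groups in 1 fit of 12665 probes detected at p under 0.05 on at least 4 arrays, with Benjamini-Hochberg adjustment and a threshold of 0.05. A probe not detected on any array of a group has a lower bound, the mean of the bright group over the lowest level called detected on the dark group's arrays (4.86 to 5.22 on the log2 scale). The procedure was tested on simulated data. Members named with values are the sex-dependent, CYP2B, epoxygenase and CYP4F lists, the forms best known outside the liver, and up to 8 members a comparison with the largest called change and no overlap. Other genes come from redox, regulator and sex-dependent lists. Members and lists were chosen with earlier results of these data known. Alternatives covered neqc again, quantile normalization without background correction, the filter, 1 probe per gene, only the groups compared, 1 array per construct, median centring, trend and robust variance, a replicate block, a plain analysis of variance and each sample left out. Promoters were searched with Python 3.11.15 and aligned with Biopython 1.88.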

Additional observations from a re-analysis of the deposited data

Results flagged for a closer look

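In 8 of 120 groups of 4 samples, 1 sample stood apart from the other 3 by more than Dixon's critical value for that group size, and chance alone gives about 1 in 20. On day 2, replicate 4 was high for Cyp2c13 (6.68, the others 5.86 to 5.94), Cyp2r1 (7.88, the others 7.71 to 7.72) and Cyp4f40 (4.94, the others 4.41 to 4.49, none of them detected), and replicate 1 was high for Cyp4f5 (4.97, the others 4.53 to 4.59). On day 15, replicate 3 was high for Cyp2a3 (5.52, the others 4.55 to 4.70). Among hepatocytes, replicate 3 was high for Cyp2c12 (14.88, the others 14.75 to 14.77) and replicate 4 for Cyp2j3 (11.59, the others 11.13 to 11.19). In liver, replicate 1 was low for Cyp4f4 (11.35, the others 11.64 to 11.69). All values are on the log2 intensity scale.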

How the results depend on the processing

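Of 240 member comparisons, 142 were called, 116 of them in every setting run, and 26 were lost in at least 1 setting, 21 of these when 1 sample was left out. Another 20 were gained in at least 1 setting, and 1 reversed, Cyp2c7 on day 15 against day 2 (1.24 without day 15 replicates 1 and 2, -0.52 with them). The settings that took the 24 arrays as separate samples gained 9 (neqc again) and 8 (quantile normalization). Those gains may come from counting duplicate arrays. The count for day 28 against day 15 was 7, against 2 with only the groups compared and 4 without day 15 replicates 3 and 4 (3 higher and 1 lower). The cause was not tested. Leaving out 1 sample at a time gave 20 to 22 calls for day 2, 24 to 26 for day 15, 23 to 26 for day 28 and 3 to 6 for hepatocytes against liver, 22 to 23 for day 2 against hepatocytes, 13 to 17 for day 15 against day 2, 4 to 8 for day 28 against day 15, 15 to 17 for day 28 against day 2, and 18 to 21 for the F test. Samples were treated as unpaired. Of 36 same-numbered pairs, 6 correlated above 0.1 (-0.24 to 0.26), but differently numbered pairs were not set beside them, so pairing by replicate number was not decided. With the replicate number as a block the counts were 22, 26, 26, 6, 23, 17, 7 and 16 in the same order and 21 for the F test, with 0 calls lost and 1 gained. Compression near background and near the top of the scale limits the folds of the dimmest and brightest members.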
